A study of Mus musculus with 9 samples.

Results

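The microRNA miR-483-5p recognises messages through its seed, and 10 mouse genes whose longest annotated 3′ UTR holds an 8-base match to that seed were followed through 9 RNA-seq libraries of hepatocytes. The genes were Klf6, Ccnd2, Adarb1, Prmt5, Dnajc5, Stxbp4, Tbc1d5, Hspa12a, Ptdss2 and D10Wsu102e, listed by symbol and joined to the Ensembl identifiers of the count tables. All 10 were among the 21959 genes listed and among the 11562 genes with enough counts to be tested. They were chosen by sequence, with earlier results of these data known, and 40 further tested genes hold the same match. Why these 10 and not the others were listed is not stated. Of the 10, 1 gene, Hspa12a, was called higher with an antagomir against miR-483-5p than with a control antagomir. In that comparison 14.7% of all tested genes were called, 7.59% higher and 7.09% lower. The call on Hspa12a was lost when any 1 of 4 libraries was left out. By the main test no listed gene was called against vehicle. There 1.02% of all tested genes were called with the control antagomir and 6.52% with antagomir-483-5p.

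The cells were AML12, a hepatocyte line established from mice carrying a transforming growth factor alpha transgene, and every group was kept under free fatty acids (FFA). Veh received phosphate-buffered saline. OCY-EV+ANTA-NC received extracellular vesicles of aged osteocytes after 30 min of contact with a control antagomir (antagomir-NC), and OCY-EV+ANTA received such vesicles after the same contact with antagomir-483-5p. The vesicle concentration was 2 µg/ml in both. Each group had 3 libraries, and the labels do not say whether these were separate cultures, so p-values measure only the spread between libraries, which may be technical. For the step after the incubation the protocol names ultracentrifugation and the sample titles ultrafiltration. No group received vesicles without an antagomir or an antagomir without vesicles, so OCY-EV+ANTA-NC against Veh joins the vesicles and the control antagomir.

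A microRNA guides an Argonaute protein to messages whose 3′ UTR pairs with its seed, the bases near its 5′ end, and the usual outcome is faster decay or weaker translation of the message. Pairing along the whole seed with an A in the message opposite the first base is the strongest class of site. An antagomir is a modified antisense oligonucleotide that binds a microRNA and blocks it. The gene for miR-483 lies within Igf2, an imprinted growth factor gene that is active in fetal liver. The comparisons ask about the same sites. OCY-EV+ANTA-NC against Veh asks whether messages carrying them differ when vesicles and the control antagomir are added together. OCY-EV+ANTA against OCY-EV+ANTA-NC asks whether these messages differ between the antagomirs. The libraries measure neither miR-483-5p in the vesicles nor its block.

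The mature microRNA is 22 bases long and comes from chr7:142654968-142654989 on the minus strand (RefSeq, GRCm38.p6). It is shown with its seed, bases 2 to 8, in capitals, because these letters define the whole list. No other mature miRNA in the RefSeq table shared this seed.
mmu-miR-483-5p: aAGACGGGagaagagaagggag

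The sites below are shown 5′ to 3′ on the message strand with 11 bases on each side, because the match is what the genes share and the flanks are what they do not. They come from GENCODE M21 transcripts (GRCm38, the assembly also called mm10). Capitals mark the 8-base match, and the coordinates give the 8 capitals.
Klf6, chr13:5868399-5868406, plus strand: cctggaaattaCCCGTCTAatatcacatta
Ccnd2, chr6:127129074-127129081, minus strand: aggattgaatcCCCGTCTAtgtttttctcc
Adarb1, chr10:77291201-77291208, minus strand: tcagtgcacttCCCGTCTAgttcctgggga
Prmt5, chr14:54513425-54513432, minus strand: ggagctgacctCCCGTCTAatcacgtcatt
Dnajc5, chr2:181551925-181551932, plus strand: accctgggggaCCCGTCTAccaaggctgct
Stxbp4, chr11:90477895-90477902, minus strand: tagataaatagCCCGTCTAactttctggaa
Tbc1d5, chr17:50734943-50734950, minus strand: tgagacatctcCCCGTCTAttggccgagta
Hspa12a, chr19:58796780-58796787, minus strand: gtagcaattctCCCGTCTAgactttgagag
Ptdss2, chr7:141156244-141156251, plus strand: ctgggcagctaCCCGTCTActacattgttt
D10Wsu102e, chr10:83412421-83412428, plus strand: caggcagcaatCCCGTCTAcctttactgct

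The 8 capitals pair with bases 2 to 8 of the microRNA and end in the A that faces its first base. Of 21193 annotated genes with a 3′ UTR, 93 hold this match in the longest one, which is 0.439%, and of the 11465 tested genes with a 3′ UTR 50 do, which is 0.436%. The flanks differed in composition: A or T made up 31.8% of the 22 flanking bases at Dnajc5 and 72.7% at Klf6 and at Stxbp4. Dnajc5 and D10Wsu102e each carried a second match in which base 1 is paired as well.
Dnajc5 second match, chr2:181549890-181549897, plus strand: gggaactgggcCCCGTCTTccaggcaccac
D10Wsu102e second match, chr10:83453831-83453838, plus strand: aagggactaagCCCGTCTTatcagaataaa

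The annotation gives the sites unequal weight. The match lies in all 6 annotated 3′ UTRs of Adarb1 and in both of Tbc1d5, but in 3 of 4 for Dnajc5 and in only 1 of 2 for Klf6, 1 of 3 for Ccnd2, 1 of 4 for Stxbp4, 1 of 2 for Hspa12a and 1 of 4 for Ptdss2. Counts per gene do not show which UTR the cells used. For Prmt5 the match is in the UTR of 2 transcripts annotated as targets of nonsense-mediated decay, and the same bases are coding sequence in 2 other transcripts, so no transcript of Prmt5 annotated as protein-coding carries the site in its UTR. D10Wsu102e has a single annotated UTR of 122583 bases, which holds 12 matches to the 6-base core of the seed, and its count is a sum over that whole length. The longest UTR of Adarb1 holds 4 matches to this core, and those of Dnajc5 and Stxbp4 hold 2 each. Distances of the 8-base match from the stop codon in the longest UTR ran from 324 bases in Prmt5 to 5635 in Adarb1 and 46498 in D10Wsu102e. For Adarb1, as for Prmt5, that UTR belongs to a transcript annotated as a target of nonsense-mediated decay. Klf6 and D10Wsu102e also hold a 7-base match to the seed of miR-483-3p, the other arm of the same hairpin, and Dnajc5, Tbc1d5 and Ptdss2 a 6-base one.

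**Figure D1:**
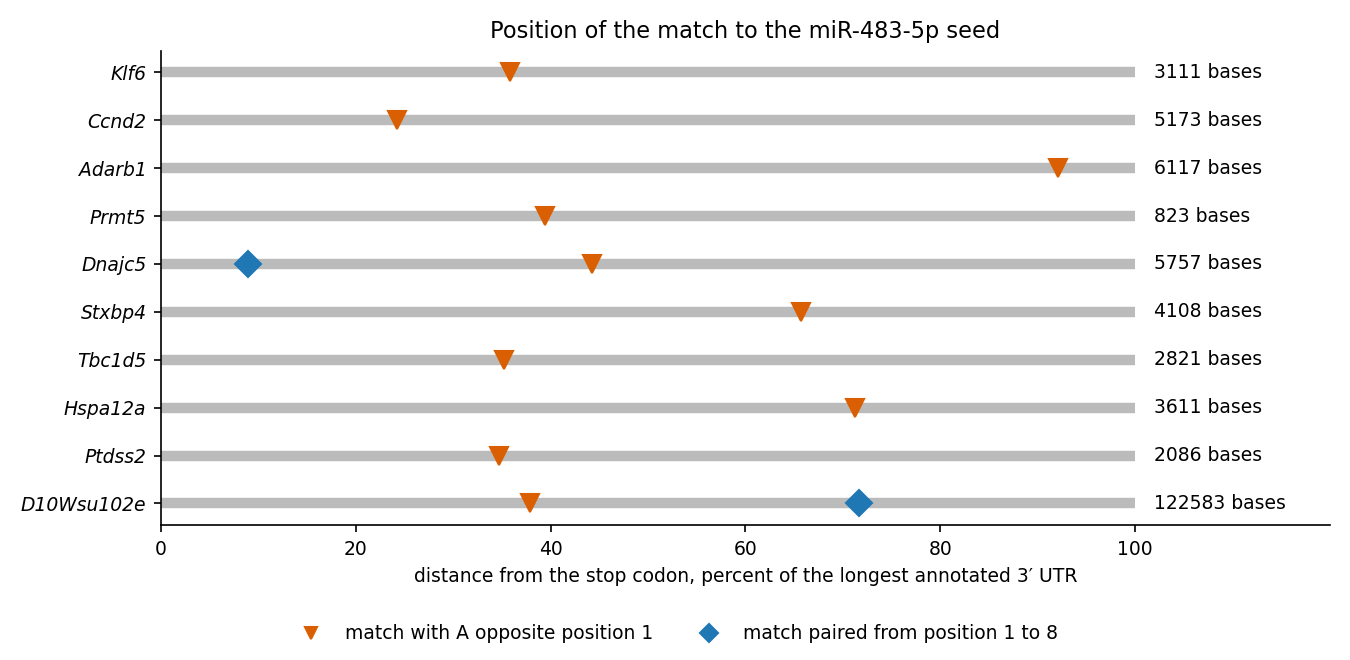
Each bar is the longest annotated 3′ UTR of a listed gene scaled to 100% from the stop codon, with its length at the right. Triangles mark the 8-base match with A opposite position 1, from 24.2% of the UTR in Ccnd2 to 92.1% in Adarb1, and diamonds the second matches of Dnajc5 and D10Wsu102e. The UTRs drawn for Adarb1 and Prmt5 belong to transcripts annotated as targets of nonsense-mediated decay.

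Total counts per library ran from 17298814 to 21737643. Of 8 hepatocyte markers Hnf4a, a factor of hepatocyte identity, lay at 48.3 to 67.1 CPM (counts scaled to a common library total). Apob lay at 90.7 to 132.9 CPM, Krt8 at 1765 to 1937 and Krt18 at 1583 to 1729. Alb was low at 1.71 to 7.28 CPM, as were Ttr at 0.578 to 2.37 and Apoa1 at 2.39 to 6.07, and Cyp2e1 of mature hepatocytes had at most 1 count. Krt19, a bile duct keratin, reached 2357 to 2839 CPM, Krt7 1119 to 1213 and Sox9 29.4 to 34.85. The 6 osteocyte markers summed to at most 0.495 CPM in any library, with Sost, Dmp1 and Pdpn at 0. The 4 leukocyte and macrophage markers summed to 33.5 to 41.1 CPM, mostly Cd14 at 23.6 to 28.5 and Cd68 at 7.15 to 14.5, with Ptprc at 5 counts or fewer, and the 4 stellate cell markers to 3.41 to 4.66 CPM, with Lrat at 0. Of 4 bile duct markers Epcam was at 0, and the 3 endothelial markers summed to at most 0.459 CPM. Igf2, the host gene of the microRNA, had 0 counts in every library, which allows up to 0.138 to 0.173 CPM (3 counts, counting error only), and the tables hold no mature microRNA. On the first principal component (22.6% of the variance) the OCY-EV+ANTA libraries lay at 12.3 to 13.9 and the others at -10.1 to -3.38. On the second (17.6%) the libraries numbered 1 of all groups, at 9.17 to 12.7, stood apart from those numbered 2 and 3, at -9.74 to -2.89, and results that rest on them are given with and without. The Spearman correlation of a library's deviations with the GC content of genes was -0.270 to -0.102 in OCY-EV+ANTA-NC, 0.0843 to 0.107 in OCY-EV+ANTA and -0.0087 to 0.220 in Veh. OCY-EV+ANTA-NC thus lay apart, and the range of Veh held that of OCY-EV+ANTA. Within Veh and within OCY-EV+ANTA-NC the correlation rose with the library number. The part of GC content in the results was not tested beyond the fits with its trend removed.

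The listed genes covered a wide range of levels. FPKM divides by 1 length per gene, which for the listed genes equals the exon bases of all annotated transcripts merged. This can exceed the length of the message in use, so the order of genes is approximate. The mean FPKM over 9 libraries was 67.7 for Dnajc5, 60.0 for Klf6, 10.9 for Prmt5, 7.14 for Ptdss2, 4.88 for Hspa12a, 3.79 for Adarb1, 3.37 for Tbc1d5, 2.60 for Stxbp4, 1.56 for Ccnd2 and 0.529 for D10Wsu102e. The median of all tested genes was 6.28, so 4 of the 10 lay above it. The lowest value is that of the gene with the very long UTR, since its FPKM divides by 123179 bases. Ranges over the 9 libraries overlapped for Adarb1, at 3.50 to 4.05 FPKM, and Tbc1d5, at 3.10 to 3.88, and for Klf6 and Dnajc5, while all other neighbours in this order were apart in every library. The coefficient of variation over all 9 libraries was 2.15% for Dnajc5, the steadiest, and 12.8% for Klf6 and 12.2% for Ccnd2, the most variable.

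Differences between groups are given as log2 fold changes with the standard error (SE) from edgeR's quasi-likelihood test, fitted over all 11562 tested genes, and a gene counts as called where its p, adjusted over all of them by the method of Benjamini and Hochberg, was under 0.05. In these bulk libraries fewer cells with a message and less message per cell cannot be told apart.

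Among the regulators of transcription and the cell cycle, neither listed gene was called in any comparison of the main test. Klf6 encodes a zinc finger transcription factor that is induced early in liver injury. Its level was 223, 287 and 269 CPM in Veh 1 to 3, 238, 326 and 274 in OCY-EV+ANTA-NC, and 226, 283 and 246 in OCY-EV+ANTA. The groups overlapped widely, and in each of the 3 groups the library numbered 1 was the lowest. The log2 fold change was 0.08 (SE 0.09) for OCY-EV+ANTA-NC against Veh and -0.12 (SE 0.09, adjusted p = 0.437) for OCY-EV+ANTA against OCY-EV+ANTA-NC. Without OCY-EV+ANTA-NC 2 these values became -0.04 and 0.0071, and without OCY-EV+ANTA-NC 1 they were 0.19 and -0.23 (adjusted p = 0.383 and 0.0974). Without the 3 libraries numbered 1, an alternative chosen after seeing the data, they were 0.09 and -0.16 (adjusted p = 0.539 and 0.0595). The value between the antagomirs was called at -0.13 (adjusted p = 0.0129) with no filter on low counts, a fit that gave no weight to a gene's own spread.

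Ccnd2, a D-type cyclin that activates CDK4 and CDK6 in G1, gave the smallest counts of the list, 228 to 321 per library. It lay at 16.4, 12.4 and 13.5 CPM in Veh, 16.3, 17.3 and 14.0 in OCY-EV+ANTA-NC and 15.8, 13.2 and 13.1 in OCY-EV+ANTA. The 3 groups overlapped. The largest positive fold change of the list in OCY-EV+ANTA-NC against Veh was that of Ccnd2, at 0.15 (SE 0.11, adjusted p = 0.595), and the largest negative one in OCY-EV+ANTA against OCY-EV+ANTA-NC was also its own, at -0.15 (SE 0.11, adjusted p = 0.425). Neither passed, and these comparisons share the OCY-EV+ANTA-NC libraries. Exons on the opposite strand cover 7.86% of its exon bases, and the strand setting of the counting is not known.

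The 2 listed enzymes that modify RNA or proteins were not called either. Adarb1 encodes ADAR2, which edits adenosine to inosine in double-stranded RNA. It lay at 45.6, 39.5 and 42.3 CPM in Veh, 41.6, 42.4 and 42.1 in OCY-EV+ANTA-NC and 41.5, 45.3 and 43.6 in OCY-EV+ANTA, with every group inside the range of Veh. Its fold changes were -0.03 (SE 0.06) with the control antagomir against Veh and 0.08 (SE 0.06) between the antagomirs.

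Prmt5 encodes the main methyltransferase that makes symmetric dimethylarginine, for example on Sm proteins of the spliceosome. It lay at 41.6, 40.9 and 42.0 CPM in Veh, 42.8, 41.7 and 44.2 in OCY-EV+ANTA-NC and 46.0, 44.9 and 44.8 in OCY-EV+ANTA. Every OCY-EV+ANTA library was above every other library. The difference was 0.11 (SE 0.05, unadjusted p = 0.0421, adjusted p = 0.159) against OCY-EV+ANTA-NC and 0.13 (SE 0.05, unadjusted p = 0.0138, adjusted p = 0.116) against Veh, and neither passed. Its protein-coding transcripts are the ones without the site in an annotated UTR.

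Of the 3 listed genes of vesicle traffic, none was called in the main test. Dnajc5 encodes cysteine string protein, a J-domain cochaperone on secretory vesicles that helps fold the SNARE protein SNAP25. It lay at 477, 464 and 480 CPM in Veh, 465, 462 and 466 in OCY-EV+ANTA-NC and 491, 468 and 461 in OCY-EV+ANTA. The 95% intervals of its fold changes were the narrowest of the list, from -0.11 to 0.01 for the control antagomir against Veh and from -0.0061 to 0.12 between the antagomirs. Stxbp4, which binds syntaxin 4 and takes part in insulin-regulated vesicle fusion, ran from 28.8 to 32.5 CPM over all libraries, with fold changes of 0.02 to 0.06 in the 3 comparisons.

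Tbc1d5 encodes a RAB7 GTPase-activating protein that binds the retromer, the coat that returns cargo from endosomes. It lay at 43.9, 42.6 and 41.4 CPM in Veh, 44.6, 42.6 and 46.2 in OCY-EV+ANTA-NC and 42.4, 51.8 and 49.0 in OCY-EV+ANTA. OCY-EV+ANTA 2 and 3 were the highest of all 9, and OCY-EV+ANTA 1 fell among the controls. The difference was 0.13 (SE 0.06, adjusted p = 0.172) against OCY-EV+ANTA-NC and 0.17 (SE 0.06, adjusted p = 0.110) against Veh. Without OCY-EV+ANTA 1 the values were 0.21 (adjusted p = 0.0193) and 0.25 (adjusted p = 0.00996), and without all 3 libraries numbered 1, an alternative chosen after seeing the data, 0.21 (adjusted p = 0.0294) and 0.27 (adjusted p = 0.00576). Whether Tbc1d5 was called therefore depended on the libraries used.

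**Figure D2:**
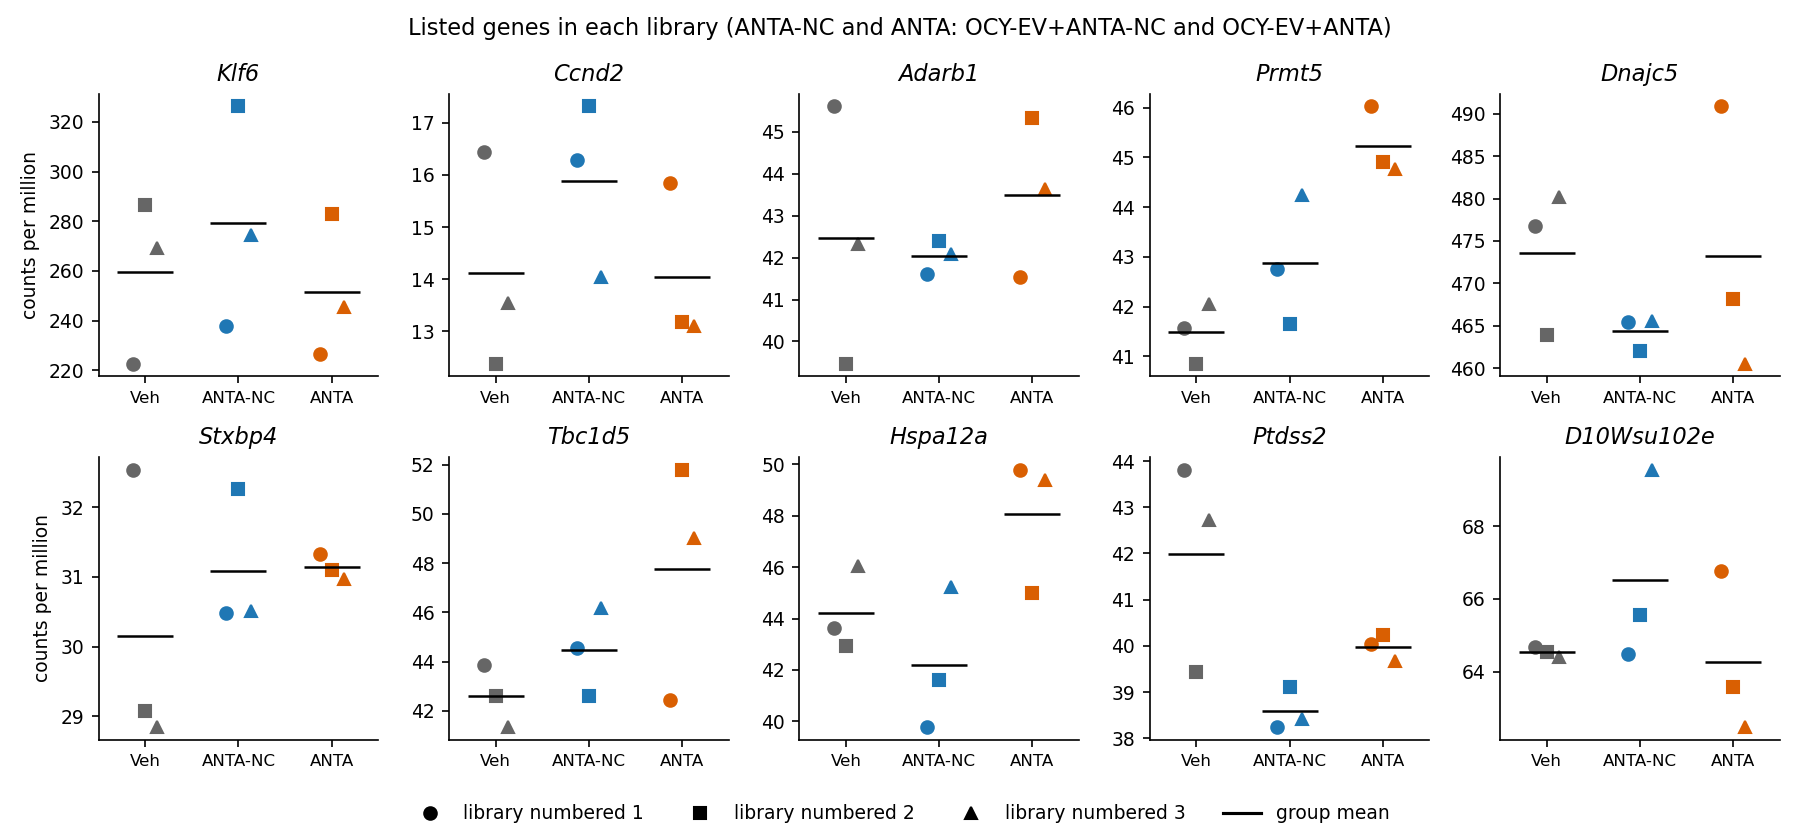
CPM of each listed gene in the 9 libraries, with a separate vertical scale per gene that does not start at 0. Symbols give the library number, colours the group and lines the group mean. Hspa12a has its highest mean, 48.1 CPM, in OCY-EV+ANTA, and the library numbered 1 is lowest for Klf6 in every group.

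Hspa12a, a distant member of the HSP70 chaperone family with an ATPase domain unlike the others, was the only listed gene called. It lay at 43.6, 42.9 and 46.1 CPM in Veh, 39.8, 41.6 and 45.2 in OCY-EV+ANTA-NC and 49.8, 45.0 and 49.4 in OCY-EV+ANTA. OCY-EV+ANTA 1 and 3 were above all other libraries, while OCY-EV+ANTA 2 lay just below OCY-EV+ANTA-NC 3. The group means were 44.2 ± 1.64, 42.2 ± 2.76 and 48.1 ± 2.67 CPM (SD, n = 3). It rose by 0.22 on the log2 scale in OCY-EV+ANTA against OCY-EV+ANTA-NC (SE 0.06, 95% interval 0.10 to 0.34, adjusted p = 0.0159), a fold of 1.16. Against Veh the value in OCY-EV+ANTA was 0.13 (SE 0.06, adjusted p = 0.204), and the value in OCY-EV+ANTA-NC was -0.09 (SE 0.06, adjusted p = 0.558).

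The call on Hspa12a was lost without OCY-EV+ANTA-NC 1 (adjusted p = 0.0808), OCY-EV+ANTA-NC 2 (0.0564), OCY-EV+ANTA 1 (0.0552) or OCY-EV+ANTA 3 (0.0664), with a fold change of 0.18 to 0.21 in these fits. Without the 3 libraries numbered 1 it was 0.15 (adjusted p = 0.163). limma on log2(FPKM + 1) gave 0.16 (adjusted p = 0.110). The call held with the GC and length trend removed (0.22, adjusted p = 0.00969). Eno4 on the opposite strand covers 1.81% of the exon bases of Hspa12a. The tested gene whose log2 CPM over the 9 libraries was most like that of Hspa12a was Tmem63a, a membrane channel gene, with Pearson's r = 0.957 among 11552 genes compared. Tmem63a was picked for that likeness in the same libraries, so its group difference follows from the choice and is no separate result. It gave 0.17 between the antagomirs (SE 0.05, adjusted p = 0.0182), a call that ended without OCY-EV+ANTA-NC 1 or 2 or OCY-EV+ANTA 3 (adjusted p up to 0.0926) or with library size alone.

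Ptdss2 encodes phosphatidylserine synthase 2, which makes phosphatidylserine from phosphatidylethanolamine. It lay at 43.8, 39.4 and 42.7 CPM in Veh, 38.2, 39.1 and 38.4 in OCY-EV+ANTA-NC and 40.0, 40.2 and 39.7 in OCY-EV+ANTA. OCY-EV+ANTA-NC was below every Veh library and also below every OCY-EV+ANTA library. The difference was -0.14 (SE 0.05, unadjusted p = 0.0148, adjusted p = 0.226) against Veh and 0.08 (SE 0.05, adjusted p = 0.350) in OCY-EV+ANTA against OCY-EV+ANTA-NC, and neither passed. D10Wsu102e, a protein-coding gene to which no role is given here, ran from 62.5 to 69.5 CPM, with fold changes between -0.02 and 0.02. Aldh1l2 on the opposite strand covers 0.86% of its exon bases.

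**Figure D3:**
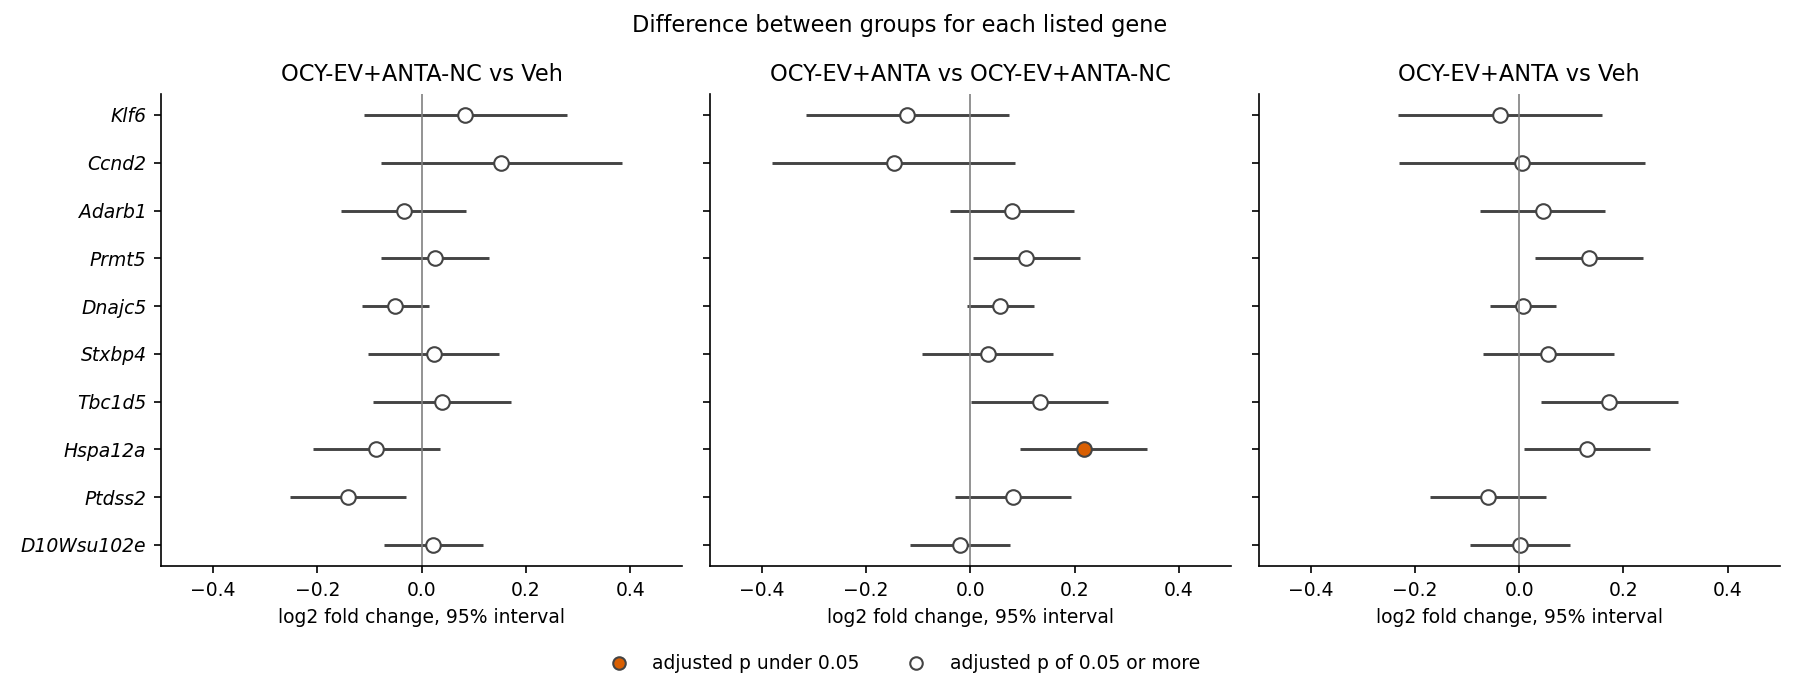
Log2 fold change of each listed gene with its 95% interval in the 3 comparisons (edgeR, 3 libraries per group). The filled point is the only gene with an adjusted p under 0.05, Hspa12a at 0.22 in OCY-EV+ANTA against OCY-EV+ANTA-NC, and every interval lies within -0.4 and 0.4.

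Counts over the 10 genes are read against the share of all tested genes called in the same comparison. In OCY-EV+ANTA-NC against Veh 0 of 10 were called by edgeR, where 1.02% of all tested genes were called, 0.813% higher and 0.208% lower. One listed gene had an unadjusted p under 0.05, against 13.5% of all tested genes. DESeq2 gave an adjusted p for only 3 of the 10, none of them called. The median fold change of the 10 was 0.02 and that of all tested genes -0.0047, and 1 of 10 (Ptdss2, lower) had groups that did not overlap, against 18.8% of all tested genes. In OCY-EV+ANTA against OCY-EV+ANTA-NC 1 of 10 was called, where the background was 14.7%, 7.59% higher and 7.09% lower. Unadjusted p under 0.05 was reached by 3 of the 10, against 28.0% of all tested genes. The median of the 10 was 0.07 against -0.0020, and 2 of 10 (Prmt5 and Ptdss2, both higher) did not overlap, against 30.2%. In OCY-EV+ANTA against Veh 0 of 10 were called, where the background was 6.52%, 3.06% higher and 3.46% lower. There 3 listed genes had an unadjusted p under 0.05, against 20.8% of all tested genes, and DESeq2 called 0 of 10. The median was 0.03 against 0.0001, and 1 of 10 (Prmt5, higher) did not overlap, against 25.0%.

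The 95% intervals measure the spread between libraries, which may be technical, so they do not bound differences between cultures. They are unadjusted, hold for each gene singly and cover all its transcripts together. Over the 3 comparisons the 95% intervals of all 10 genes lay between -0.38 and 0.38, and those of Dnajc5 between -0.11 and 0.12. Of the 10 fold changes 6 were positive in OCY-EV+ANTA-NC against Veh, 7 in OCY-EV+ANTA against OCY-EV+ANTA-NC and 8 in OCY-EV+ANTA against Veh, and the comparisons share libraries. The background splits moved with the scaling: with library size alone 157 genes were called higher and 6 lower in OCY-EV+ANTA-NC against Veh (94 and 24 in the main test), and 530 and 1155 in OCY-EV+ANTA against OCY-EV+ANTA-NC (878 and 820). With the GC and length trend removed these were 45 and 26, and 1155 and 603.

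The whole set of 50 tested genes with the 8-base match was called at shares near the background. In OCY-EV+ANTA-NC against Veh 1 was called higher and 0 lower, which is 2.00%, in OCY-EV+ANTA against OCY-EV+ANTA-NC 3 higher and 4 lower, which is 14.0%, and in OCY-EV+ANTA against Veh 1 higher and 2 lower, which is 6.00%. The medians were 0.0018, 0.0076 and 0.03, against -0.0047, -0.0020 and 0.0001 over all tested genes. Genes with a 7-base match to bases 2 to 8 (374 tested) had medians of -0.02, 0.0067 and 0.0081 and 1.34%, 16.6% and 6.42% called. The 9961 tested genes with no match had medians of -0.0040, -0.0030 and 0.0004 and 1.04%, 14.8% and 6.64% called. The median 3′ UTR of the 8-base class was 2692 bases long and that of the class with no match 1205, so the classes also differ in length.

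**Figure D4:**
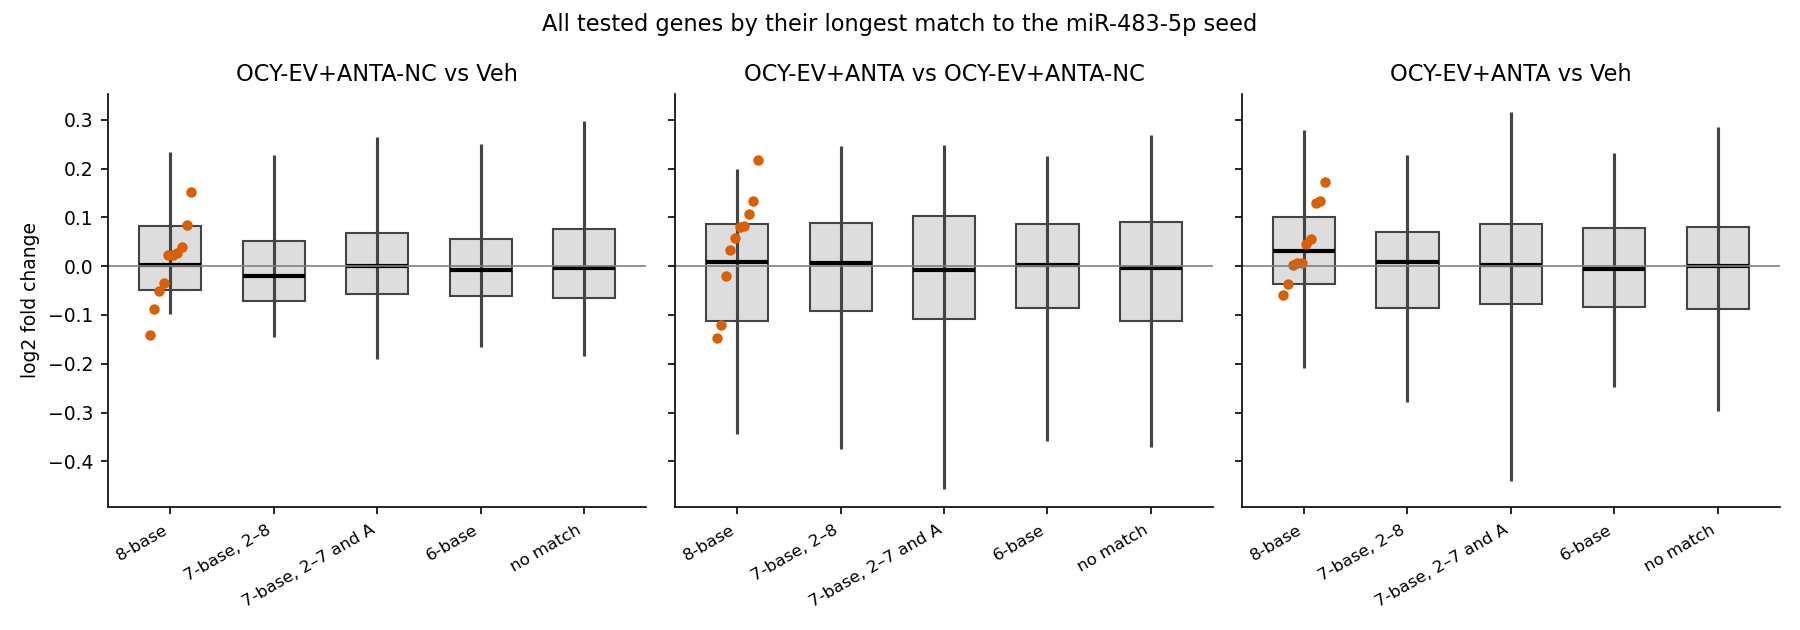
Log2 fold changes of all tested genes by the longest match to the miR-483-5p seed in their longest 3′ UTR (50, 374, 147, 933 and 9961 genes). Boxes span the quartiles, thick lines the median and vertical lines the 5th to 95th percentile, and points over the 8-base class are the 10 listed genes. The medians of all classes lie between -0.02 and 0.03.

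Among the other 40 genes with the 8-base match 7 were called in at least 1 comparison, in both directions. Of the 40, 1 was called in OCY-EV+ANTA-NC against Veh (background 1.02%), 6 in OCY-EV+ANTA against OCY-EV+ANTA-NC (14.7%) and 3 in OCY-EV+ANTA against Veh (6.52%). Slc6a6, the taurine transporter, fell by 0.38 on the log2 scale in OCY-EV+ANTA against OCY-EV+ANTA-NC (SE 0.04, adjusted p = 7.21e-06) and by 0.42 against Veh (adjusted p = 3.92e-06). Tia1, an RNA-binding protein of stress granules, gave 0.19 in OCY-EV+ANTA-NC against Veh (adjusted p = 0.0301) and fell by 0.31 in OCY-EV+ANTA against OCY-EV+ANTA-NC (adjusted p = 8.91e-05). The first of these calls was lost without any Veh library or without OCY-EV+ANTA-NC 2 or 3 (adjusted p up to 0.115), and after removal of the GC trend. Ccng2, an atypical cyclin linked to growth arrest, rose by 0.18 between the antagomirs (adjusted p = 0.00102) and by 0.16 against Veh (adjusted p = 0.00562), and the zinc finger gene Zfp652 rose by 0.18 between the antagomirs (adjusted p = 0.00412). These calls, other than that of Tia1 against Veh, held without any single library.

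The last 3 of the 7 were weaker. Phtf1 gave -0.15 between the antagomirs (adjusted p = 0.0148), and lost its call without OCY-EV+ANTA-NC 2 or OCY-EV+ANTA 2 (up to 0.0700), and after removal of the GC trend. Metap2, a methionine aminopeptidase, gave -0.11 in the same comparison (adjusted p = 0.0362), a call lost without OCY-EV+ANTA-NC 1 or 2 or OCY-EV+ANTA 2 or 3 (up to 0.136), and after removal of the GC trend. Pank2, a pantothenate kinase of coenzyme A synthesis, gave -0.18 in OCY-EV+ANTA against Veh (adjusted p = 0.0385), lost without any library of these groups but OCY-EV+ANTA 1, or without OCY-EV+ANTA-NC 3 (up to 0.178).

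Partners of the listed genes were read from lists of related function. None of their tested members was called in OCY-EV+ANTA-NC against Veh, where only 1.02% of all tested genes were called. Of 14 D-type cyclin partners of Ccnd2, 2 were higher and 2 lower between the antagomirs (median 0.02). Ccnd1, the sister cyclin, fell from 312 to 264 CPM, by 0.21 on the log2 scale (SE 0.04, adjusted p = 0.00176), where Ccnd2 itself gave -0.15 and was not called. In OCY-EV+ANTA against Veh Ccnd1 gave -0.22 (adjusted p = 0.00231). Cdkn1a, the CDK inhibitor p21, rose by 0.22 (SE 0.04, adjusted p = 0.00194). Cdkn1b, the inhibitor p27, rose by 0.14 (SE 0.04, adjusted p = 0.0107), a call lost without OCY-EV+ANTA-NC 1 or OCY-EV+ANTA 2 (up to 0.0664). Its value in OCY-EV+ANTA against Veh was 0.15 (adjusted p = 0.0158), lost without Veh 1 or 2 or OCY-EV+ANTA 2 or 3 (up to 0.0791). The kinase gene Cdk6, named after its value was seen, gave -0.15 (adjusted p = 0.0250), lost without OCY-EV+ANTA-NC 2 or OCY-EV+ANTA 2 (up to 0.126) or with the GC and length trend removed.

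In the KLF family 11 genes other than Klf6 were tested and 2 were called higher in OCY-EV+ANTA against OCY-EV+ANTA-NC (median 0.06), while Klf6 gave -0.12. Klf10 gave 0.26 (adjusted p = 0.0186) and Klf11 0.25 (adjusted p = 0.0189), both known as genes induced by TGF-beta. Both calls were lost without OCY-EV+ANTA-NC 1 or OCY-EV+ANTA 2, and that of Klf10 also without OCY-EV+ANTA 3 (up to 0.117 for Klf10 and 0.149 for Klf11). Klf5 gave 0.16 against Veh (adjusted p = 0.0473), a call lost without any library of Veh or OCY-EV+ANTA or without OCY-EV+ANTA-NC 3 (up to 0.152).

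Of 14 genes of the PRMT5 complex, its Sm protein substrates and other arginine methyltransferases, 1 was lower and 0 higher between the antagomirs (median -0.04). This was Snrpd3, an Sm protein, at -0.28 (SE 0.07, adjusted p = 0.0135), a call lost without OCY-EV+ANTA-NC 2 or 3 or OCY-EV+ANTA 1 (up to 0.0695) and with DESeq2. Snrpd3 was also called lower in OCY-EV+ANTA against Veh, at -0.33 (adjusted p = 0.00882), lost only without Veh 2 among single libraries (0.0586). Of 6 tested genes of A-to-I editing and ADAR2 turnover, only the ubiquitin ligase gene Wwp2 was called between the antagomirs, at 0.20 (adjusted p = 0.0445), and 8 of the 9 single libraries ended that call when left out, all but OCY-EV+ANTA 3 (up to 0.166).

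Of 14 retromer and RAB7 partners of Tbc1d5, 2 were higher and 0 lower between the antagomirs (median -0.0012). Vps26b, a subunit of the retromer, rose by 0.28 (SE 0.05, adjusted p = 0.000715), in every fit that left out a library. Snx3, a sorting nexin of the retromer, gave 0.14 (adjusted p = 0.0275), lost without OCY-EV+ANTA-NC 1 or 2 or OCY-EV+ANTA 2 or 3 (up to 0.141) and with library size alone. Among 14 SNARE partners of Stxbp4 and Dnajc5 the median was -0.02. Snap25, the client of the Dnajc5 product, fell from 3.75 to 1.91 CPM, by 0.95 on the log2 scale (SE 0.21, adjusted p = 0.00434).

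Of 11 tested HSP70 genes other than Hspa12a, 1 was higher and 0 lower between the antagomirs (median -0.04). Hspa9, the mitochondrial HSP70, rose by 0.16 (SE 0.03, adjusted p = 0.00345). It gave 0.14 in OCY-EV+ANTA against Veh (adjusted p = 0.0149), lost without Veh 2 or 3 or OCY-EV+ANTA 2 or 3 (up to 0.0841). Of 15 tested genes of phospholipid synthesis around Ptdss2, 2 were lower and 0 higher (median -0.01). Chka, a choline kinase, fell by 0.17 (SE 0.04, adjusted p = 0.00326), and the cholinephosphotransferase gene Chpt1 gave -0.16 (adjusted p = 0.0464), a call lost in 7 of the 9 fits that left out a library, all but those without Veh 3 and OCY-EV+ANTA 1 (up to 0.133), and after removal of the GC trend. Pcyt1a, the rate-limiting enzyme of phosphatidylcholine synthesis, gave -0.18 against Veh (adjusted p = 0.0172), lost without Veh 2 or OCY-EV+ANTA 2 or 3 (up to 0.133). Calls in these lists therefore stood at 7.14% to 28.6% of their tested members between the antagomirs, where the background was 14.7%. In OCY-EV+ANTA against Veh they stood at 0% to 18.2%, where the background was 6.52%. The calls of Ccnd1, Cdkn1a, Vps26b, Snap25, Hspa9 and Chka between the antagomirs held without any single library, as did that of Ccnd1 against Veh.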

How the data were processed

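RNA-seq was analysed from 9 libraries of AML12 cells in 3 groups of 3. The authors deposited for each library a table of counts per gene and a table of FPKM. Per the submitters' processing notes the counting used HTSeq, on the build mm10. Which aligner, annotation, versions and strand setting were used is not stated in these sources. The deposited FPKM equalled the count scaled by library total and 1 length per gene. Levels are CPM of the total count, with SD over 3 libraries. Total counts ran from 17298814 to 21737643.

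Symbols were matched through GENCODE M21 for 21851 of 21959 identifiers. 3′ UTRs were taken from all transcripts with a coding sequence, and the longest per gene was searched on the message strand only for the 8-base match (an A after the complement of seed bases 2 to 8), with matches of 7 and 6 bases as lower classes. Counts as deposited were filtered with filterByExpr (smallest count 10, smallest total 15), scaled with TMM (factors 0.9872 to 1.015) and tested with edgeR 4.0.16 in R 4.3.3 (quasi-likelihood, 1 coefficient per group, all 9 libraries, no covariate). Calls are Benjamini-Hochberg adjusted p under 0.05 over 11562 genes, with no fold limit. Only the edgeR fit of the main test was tried on simulated counts. Alternatives used DESeq2 1.42.0, limma 3.58.1 on log2(FPKM + 1) and log2(FPKM + 0.1), library size alone, no filter, GC and length trends removed, only the groups compared, the replicate number as a block, and each library left out.

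The members and lists were chosen with earlier results of these data known. Named genes were all members, up to 3 called genes per partner list by smallest adjusted p, up to 8 other called genes with the match, the gene most correlated with each called member, and Igf2. Cdk6 was named after its value was seen. The result of 1 partner gene is not reported here.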

Additional observations from a re-analysis of the deposited data

How the results depend on the processing

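In OCY-EV+ANTA-NC against Veh 118 genes were called in the main test, 335 with no filter, 48 and 49 with limma on log2(FPKM + 1) and log2(FPKM + 0.1), 71 with the GC and length trend removed and 180 with only these groups fitted. Leaving out a library gave 43 to 184 there, 1005 to 1635 in OCY-EV+ANTA against OCY-EV+ANTA-NC (1698 in the main test) and 322 to 872 in OCY-EV+ANTA against Veh (754). Leaving out a library gave 0 to 1 listed genes called in OCY-EV+ANTA against OCY-EV+ANTA-NC and 0 to 1 in OCY-EV+ANTA against Veh. Between the antagomirs limma called 0 listed genes with either pseudocount (Hspa12a at adjusted p = 0.110 and 0.107), and the fit with no filter called 2, with Klf6 at -0.13 (adjusted p = 0.0129). That fit had an infinite prior degrees of freedom (14.2 in the main test), so a gene's own spread had no weight in it. Without the libraries numbered 1, an alternative chosen after seeing the data, 1 listed gene, Tbc1d5, was called in OCY-EV+ANTA against Veh. Counting pairing of bases 1 to 8 as a match raised the tested genes of the class from 50 to 110, any annotated UTR gave 62, and protein-coding transcripts only, also chosen after seeing the data, gave 43 and left out Prmt5.

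Among other named calls, limma on log2(FPKM + 1) did not call Tmem63a, Cdk6, Klf10, Klf11, Klf5, Wwp2, Hspa9, Chpt1, Zfp652, Pank2 or, against Veh, Tia1 and Snrpd3. DESeq2 did not call Snrpd3 between the antagomirs, Wwp2, Chpt1 or Pank2. Without the libraries numbered 1 Tmem63a, Klf5, Wwp2, Snx3 and Metap2 were not called.

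Same-numbered libraries deviated together with correlations of 0.0285 to 0.245, all positive but not all over 0.1. Those numbered 1 correlated at 0.159 to 0.245 with each other and at -0.152 to -0.0265 with the other numbers. Numbers 2 and 3 were not separated in this way, as OCY-EV+ANTA-NC 2 correlated at 0.0779 with Veh 3 and 0.0765 with Veh 2. The main test does not take the numbers as pairs, so what same-numbered libraries share stays in its spread. With the replicate block 522 genes were called in OCY-EV+ANTA-NC against Veh and 1446 in OCY-EV+ANTA against Veh, and 427 and 1436 with the replicate block and the GC and length trend removed. The replicate block called 2 listed genes between the antagomirs, Hspa12a and Klf6 (-0.12, adjusted p = 0.00678), and 1 in OCY-EV+ANTA against Veh, Tbc1d5 (0.17, adjusted p = 0.0420). With the GC and length trend removed as well, both added calls were lost, with Klf6 at -0.05 (adjusted p = 0.334) and Tbc1d5 at 0.16 (adjusted p = 0.0560).

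Signs turned 36 times, all in fold changes of listed genes that were not called in either fit. In OCY-EV+ANTA-NC against Veh, Stxbp4 became -0.0207 with the GC trend removed and -0.0190 with the block as well, and it ran from -0.0062 to 0.0780 without single libraries. Adarb1 ran from -0.0870 to 0.0178, and became 0.0301 without the libraries numbered 1. Without single libraries Klf6 ran from -0.0443 to 0.1884 and D10Wsu102e from -0.0064 to 0.0454. In OCY-EV+ANTA against OCY-EV+ANTA-NC, D10Wsu102e became 0.0658 with the GC trend removed, 0.0672 with the block as well and -0.0523 to 0.0109 without single libraries, where Klf6 ran from -0.2258 to 0.0071. In OCY-EV+ANTA against Veh, library size alone gave Ccnd2 -0.0029, Dnajc5 -0.0012 and D10Wsu102e -0.0062. The limma fits gave Ccnd2 -0.0031 and -0.0034, Dnajc5 -0.0016 and -0.0017, and D10Wsu102e -0.0021 and -0.0054. Ccnd2 gave -0.0032 with the GC trend removed and -0.0008 with the block as well. Without the libraries numbered 1, Dnajc5 gave -0.0173 and D10Wsu102e -0.0269. Without single libraries Ccnd2 ran from -0.0899 to 0.1256, Dnajc5 from -0.0209 to 0.0288, Klf6 from -0.1370 to 0.0414, Adarb1 from -0.0071 to 0.0979 and D10Wsu102e from -0.0268 to 0.0249. The cause of these changes was not tested. Ccnd2, with the fewest counts, had the widest intervals of the list, and 3 libraries per group limit all of them.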
